A study of Mus musculus with 35 samples.

Results

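The comparison described here sets livers that lacked both E2f7 and E2f8 against livers that lacked E2f7 alone, at 2 months of age, and so measures what the loss of E2f8 added where E2f7 was already deleted. Its members are 8 of the 35 arrays of the series, chosen by their titles: 4 labelled as the double knockout (Albumin-Cre E2f7loxp/loxp E2f8loxp/loxp) and 4 labelled as the E2f7 knockout (Albumin-Cre E2f7loxp/loxp), all on an FVB background. Albumin-Cre is a recombinase driven by the albumin promoter and is active in hepatocytes and can also recombine in bile duct epithelium, so both groups carry the Cre and the deleted E2f7 in hepatocytes. Cells in which the albumin promoter was never active are not targeted. The study also gave 4 arrays of Albumin-Cre E2f8loxp/loxp livers and 3 wild-type FVB arrays of the same normalization run at 2 months, and 4 arrays each of the double and the E2f7 knockout at 3 weeks, which are used below for comparison. The labels give the arrays numbers within a group and do not say whether each liver was of a different mouse, so p-values here measure only the spread between arrays, which may be technical. Signals are log2 values, on which 1 unit is a 2-fold change, for 18193 genes represented by 1 probe set each.

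E2f7 and E2f8 are the atypical members of the E2F family of transcription factors. They bind DNA without the dimerization partner that other E2F proteins need, act mainly as repressors of genes for DNA synthesis and the cell cycle, and can stand in for each other in many tissues. In the liver they are best known for their role in the rise of hepatocyte ploidy after weaning.

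The arrays of both groups were alike in their general properties. Across all genes the correlation between arrays was 0.9951 to 0.9973 within the double knockout, 0.9938 to 0.9976 within the E2f7 knockout and 0.9912 to 0.9967 between them. Hepatocyte markers, 15 genes such as Ahsg and Hnf4a, had a mean signal of 14.07 to 14.11 in the double knockout and 14.03 to 14.10 in the E2f7 knockout, as the tissue label asks. The signal of the 3' end over the 5' end of the Gapdh control, a measure of RNA degradation, was 1.68 to 1.99 and 1.72 to 1.83 log2 units (exact permutation test, two-sided, p = 0.543), and that of Actb was 0.19 to 0.31 and 0.23 to 0.36 (exact permutation test, two-sided, p = 0.486). With 4 arrays against 4 the smallest two-sided p of such a test is 0.0286.

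Neither deleted gene showed a loss of signal, so the signals of E2f7 and E2f8 do not check the genotype labels, and the sources used here do not say where their probes lie relative to the deleted exons. E2f8 (probe set 1436186_at) read 9.42, 9.45, 8.07 and 10.10 in double knockout arrays 1 to 4 and 7.13, 7.79, 7.46 and 7.14 in E2f7 knockout arrays 1 to 4, the order used for all values below. Within this comparison every array labelled as lacking E2f8 was thus higher than every array that kept it. The mean difference was 1.88 log2 units (SE 0.32), with a limma adjusted p of 0.0110. The E2f8 knockout arrays read 9.65, 10.01, 10.56 and 10.30 and the wild-type arrays 7.75, 7.44 and 8.58, so the same probe set was also high where only E2f8 was deleted. A second E2f8 probe set differed by 0.43, with a limma adjusted p of 0.905 over all probe sets. E2f7 read 5.25, 5.39, 5.50 and 5.35 in the double knockout and 5.44, 5.22, 5.89 and 5.17 in the E2f7 knockout, which overlap, and wild-type arrays gave 5.41, 5.63 and 5.78. E2f1 to E2f6 differed by -0.15 to 0.13 and none passed the test.

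One transcript did separate the arrays by their E2f8 label. Gm2788 (probe set 1448080_at), a long noncoding RNA gene that is the nearest measured gene to E2f8 on one side, read 6.62, 6.61, 6.46 and 6.21 in the double knockout and 9.0, 9.42, 9.64 and 8.95 in the E2f7 knockout. It fell by 2.78 log2 units (SE 0.40, limma adjusted p = 0.00154), the largest difference among the called genes. In E2f8 knockout arrays it read 6.66, 6.5, 6.32 and 6.65 against 10.18, 9.18 and 10.21 in wild type, a change of -3.32, and at 3 weeks the double differed from the E2f7 knockout by -3.94 (limma adjusted p = 9.19e-07). These 3 comparisons take their means from different arrays but share an estimate of the spread over all arrays, and Gm2788 passed the test in each. The nearest measured gene on the other side of E2f8, Csrp3, differed by 0.38 (limma adjusted p = 0.840).

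The neighbourhood of E2f8 held few other called genes. Of the 200 measured genes nearest to it in gene order, 100 on each side, 2 were called at 2 months (1.0%), Gm2788 and Sphk2, and of the 50 nearest 1 was called (2.0%). Sphk2, a sphingosine kinase, read 8.08, 7.93, 7.75 and 7.98 in the double knockout and 8.45, 8.58, 8.64 and 8.25 in the E2f7 knockout, a fall of 0.55 log2 units (SE 0.10, limma adjusted p = 0.0206). Around E2f7, which both groups lack in hepatocytes, 1 of 200 genes was called (0.5%). That gene was Lum. Over the whole genome the share was 0.236%, as given next. Genes passing an unadjusted p of 0.05 made up 14.0% of the 200 around E2f8 and 7.0% of the 200 around E2f7, against 8.22% of all genes.

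**Figure D1:**
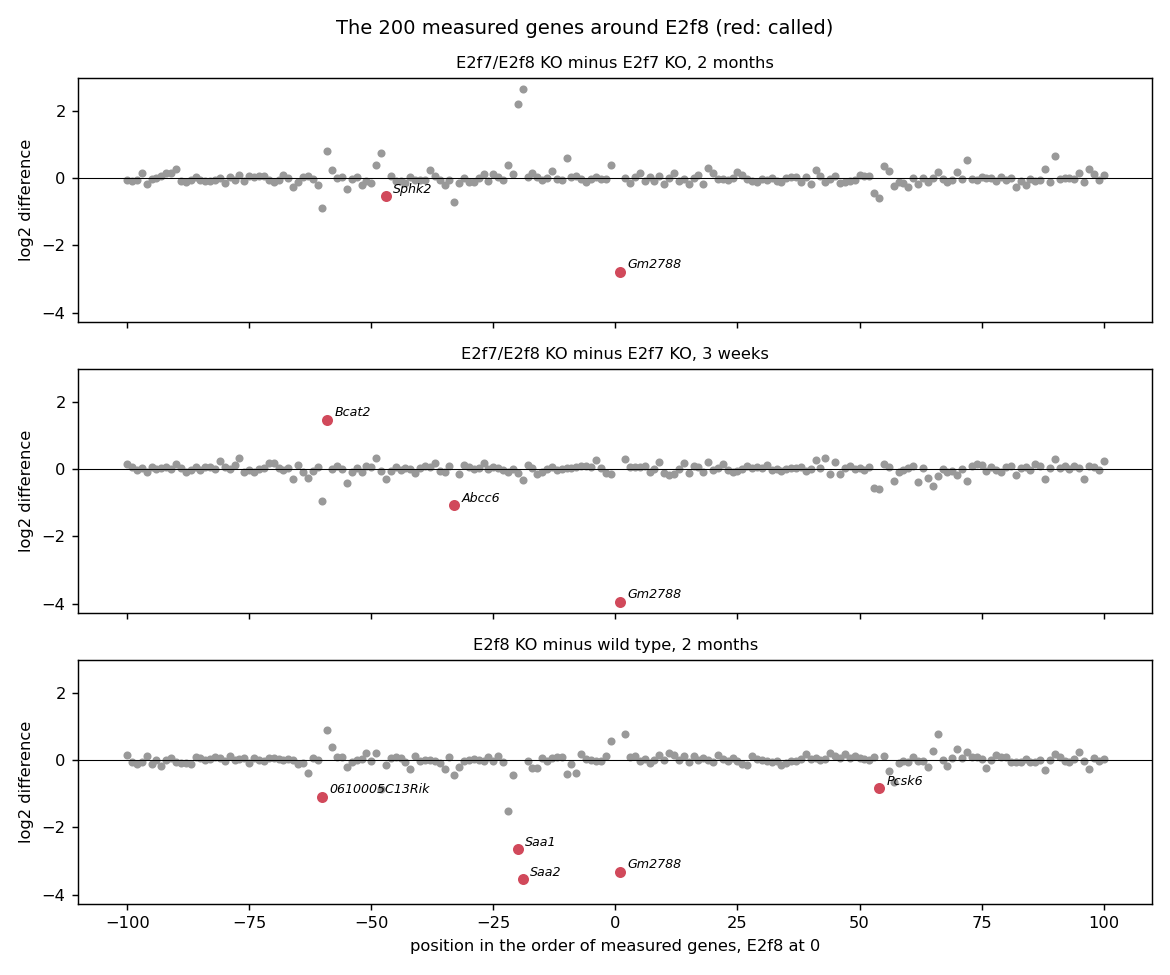
Log2 difference (vertical axis) of the 200 measured genes around E2f8 against their position in gene order (horizontal axis, E2f8 at 0, which is not drawn), for the double against the E2f7 knockout at 2 months and at 3 weeks and for the E2f8 knockout against wild type at 2 months; red points passed the test. Gm2788, next to E2f8, lies lowest in the first 2 panels, at -2.78 and -3.94, and at -3.32 in the third, where Saa2 is as low.

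At an adjusted p under 0.05 limma called 43 of 18193 genes (0.236%), 22 of them higher (0.121%) and 21 lower (0.115%) in the double knockout. In 38 of the 43 the groups did not overlap, 17 higher and 21 lower, against 7.11% of all genes. Among all genes 3.21% had every double knockout array above every E2f7 knockout array and 3.9% had it below. An unadjusted p under 0.05 was reached by 1496 genes (8.22%), 766 higher and 730 lower. Whatever the p, 43.2% of genes were higher and 56.8% lower, with a median difference of -0.0169.

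The size of the called set rested on single arrays and on the arrays used to estimate the spread. Leaving out one array at a time gave between 4 (without double knockout array 3) and 68 genes (without double knockout array 4). The other 6 fits gave 15, 5, 23 and 6 genes without E2f7 knockout arrays 1 to 4, and 8 and 10 without double knockout arrays 1 and 2. A fit of only the arrays of the same normalization run called 4 genes, a fit of only these 8 arrays 19, and a fit with no term for the run 2. Quantile normalization gave 59, and array weights, which count arrays that stand apart for less, gave 431. A replicate block in a fit of only these 8 arrays gave 64. Gm2788, Osbpl3 and Pparg stayed called in all 8 fits that left out an array, E2f8 in 7 and Irf7 in 6, whereas each other called gene stayed in at most 4. No called gene changed sign in any of these fits.

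**Figure D2:**
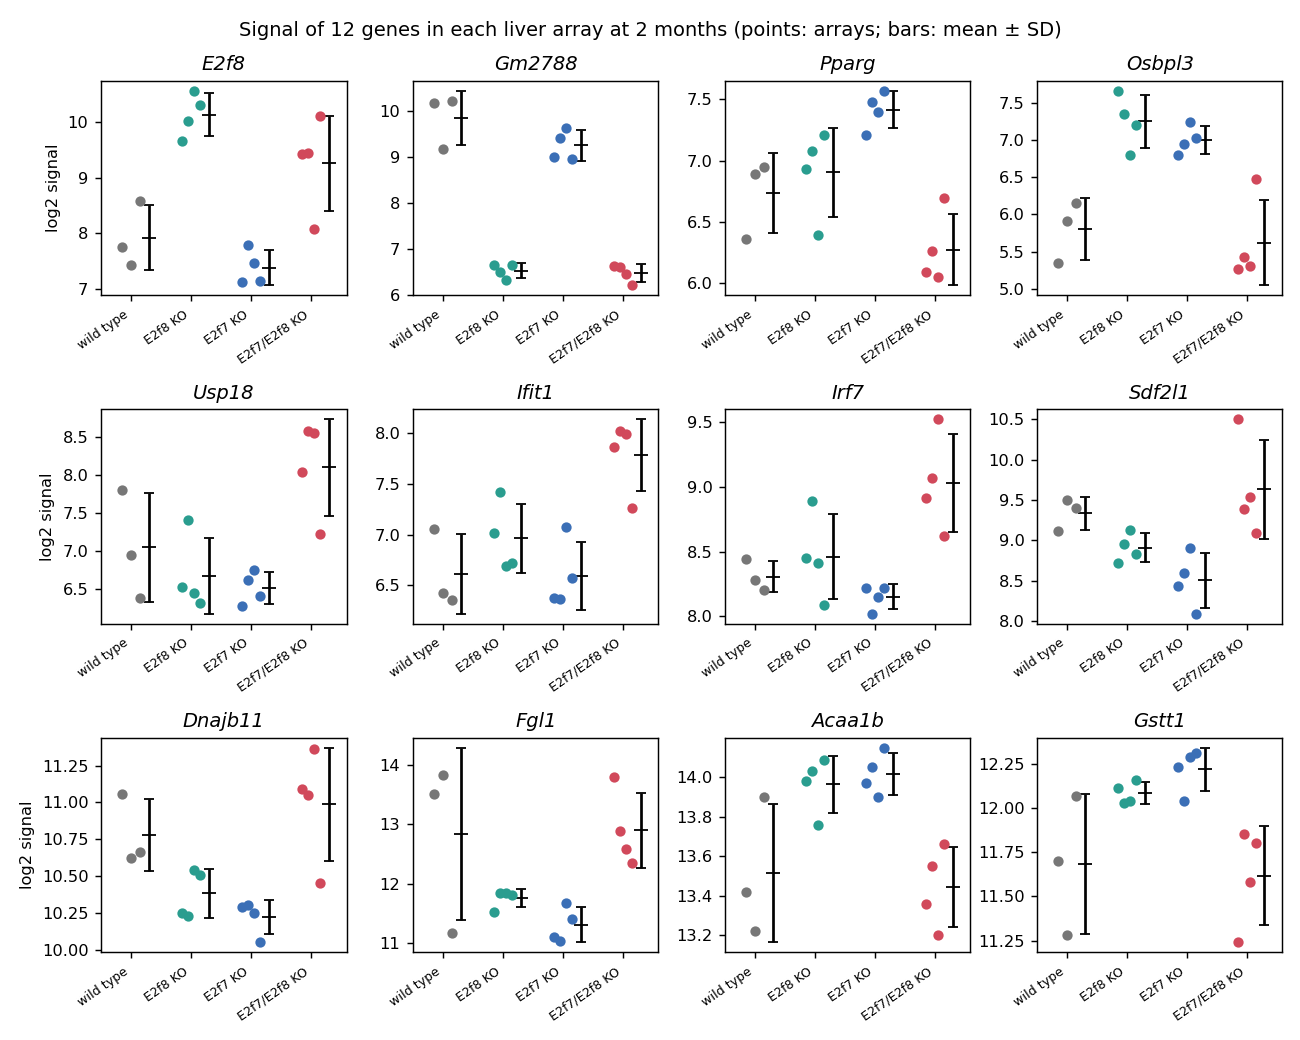
Log2 signal (vertical axis) of 12 called genes in each array at 2 months, by genotype (horizontal axis), for 3 wild-type, 4 E2f8 knockout (E2f8 KO), 4 E2f7 knockout (E2f7 KO) and 4 double knockout (E2f7/E2f8 KO) arrays; points are arrays and bars the mean with its SD. In each panel the red and the blue points do not overlap, and for Fgl1, Acaa1b and Osbpl3 the red mean lies nearer to the grey mean of wild type than the blue mean does.

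Pparg, a nuclear receptor that directs lipid storage, read 6.09, 6.26, 6.05 and 6.69 in the double knockout and 7.21, 7.48, 7.40 and 7.57 in the E2f7 knockout. It was lower in every double knockout array and fell by 1.14 log2 units (SE 0.17, limma adjusted p = 0.00154). Wild-type arrays read 6.36, 6.89 and 6.95 and E2f8 knockout arrays 6.93, 7.08, 6.39 and 7.21, so the E2f7 knockout stood highest of the 4 genotypes. Fitm1, which takes part in the formation of lipid droplets, read 8.35, 8.51, 8.47 and 9.05 against 9.61, 9.66, 9.83 and 9.62. That is a fall of 1.08 (SE 0.23, limma adjusted p = 0.0406), and it stayed called in 1 of the 8 fits that left out an array.

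Osbpl3, a lipid-binding protein of the oxysterol-binding family, read 5.27, 5.43, 5.31 and 6.47 in the double knockout and 6.80, 6.94, 7.24 and 7.02 in the E2f7 knockout. Array 4 of the double knockout stood apart from the other 3, yet below every E2f7 knockout array. The fall was 1.38 log2 units (SE 0.21, limma adjusted p = 0.00154). In the single knockout of E2f8 the gene moved the other way, with 7.66, 7.35, 6.80 and 7.20 against 5.35, 5.91 and 6.16 in wild type, a rise of 1.45 that also passed the test. Every array of both single knockouts thus read higher than every wild-type array, which no array of the double knockout but array 4 did.

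Acaa1b, a peroxisomal thiolase of fatty acid oxidation, read 13.36, 13.55, 13.20 and 13.66 against 13.97, 14.05, 13.90 and 14.15, a fall of 0.57 (limma adjusted p = 0.0206). Aldh3a2, which oxidizes fatty aldehydes, fell by 0.89 (limma adjusted p = 0.0206), from signals of 10.55 to 11.05 in the E2f7 knockout to 9.44 to 10.04 in the double knockout. Acsl5, an acyl-CoA synthetase, fell by 0.41 (limma adjusted p = 0.0406). All 3 had groups that did not overlap.

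The list of fatty acid and triglyceride synthesis was mostly lower, without a called member. Of its 23 measured genes 19 were lower and 4 higher, with a median of -0.316 against -0.0169 over all genes, and 8 were lower at an unadjusted p under 0.05 (4.01% of all genes were). Fasn, the fatty acid synthase, differed by -1.0 (limma adjusted p = 0.38), and its groups overlapped. Srebf1, the transcription factor that drives this pathway, read 11.06, 11.93, 12.01 and 11.03 against 12.29, 11.75, 12.05 and 12.48, a difference of -0.63 that overlapped too (limma adjusted p = 0.339). Scd2, a desaturase, differed by -0.73, but E2f7 knockout array 3 read 8.33 while the other 3 read 6.49 to 6.58. The mean signal of the list was 10.50 to 10.76 in the double knockout, 10.77 to 11.20 in the E2f7 knockout, 10.89 to 11.32 in the E2f8 knockout and 10.54 to 10.75 in wild type. Without E2f7 knockout array 4 the median was -0.143.

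Targets of PPAR alpha, the nuclear receptor of fatty acid oxidation, had 23 of 27 genes lower with a median of -0.106, and Acaa1b was the called member. Vnn1, a pantetheinase in this list, went the other way by 0.97 (limma adjusted p = 0.205), with 7.52, 7.54, 6.07 and 6.19 against 6.10, 5.94, 5.09 and 6.30, so that the groups overlapped.

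Gsta4 and Gstt1, both glutathione transferases, were the called members among 27 genes of xenobiotic metabolism, of which 22 were lower and 5 higher (median -0.125). The median was -0.074 without E2f7 knockout array 3 and -0.202 without E2f7 knockout array 4. Each of the pair stayed called in 1 of the 8 fits that left out an array. Gsta4 read 10.04, 10.21, 10.19 and 10.73 against 11.00, 10.81, 11.16 and 11.34, a fall of 0.78 (SE 0.18, limma adjusted p = 0.0456). Gstt1 read 11.24, 11.85, 11.58 and 11.80 against 12.23, 12.04, 12.29 and 12.31, a fall of 0.60 (limma adjusted p = 0.0406). In both genes every double knockout array was lower than every E2f7 knockout array. The cytochromes of the list did not pass the test, and Cyp3a11, Cyp2e1 and Cyp2c29 differed by -0.08, -0.03 and -0.01.

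Other enzymes that fell include Inmt, an amine methyltransferase, which read 12.53, 12.59, 12.66 and 13.31 against 13.58, 13.52, 13.50 and 13.77 (fell by 0.82, limma adjusted p = 0.0301). Akr1b8, an aldo-keto reductase, fell by 0.98 (limma adjusted p = 0.0263), and Hsd17b6, a steroid and retinol dehydrogenase, by 0.90 (limma adjusted p = 0.0397). Cda, the cytidine deaminase, read 5.81, 5.64, 5.69 and 5.72 against 6.77, 6.64, 6.67 and 6.77 and fell by 1.0 (SE 0.20, limma adjusted p = 0.0218). Here too the groups did not overlap. Blvrb, a biliverdin reductase, fell by 0.67. Hspb6, a small heat shock protein, fell by 0.69 and Zfand4 by 0.92. Fam241a fell by 0.73, Tns3, a focal adhesion protein, by 0.39 and Haus7, a spindle protein, by 0.33.

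Lum, the matrix proteoglycan lumican, completed the called falls. It read 7.34, 7.34, 6.77 and 7.77 in the double knockout and 8.65, 8.22, 8.27 and 8.24 in the E2f7 knockout, a fall of 1.04 (SE 0.20, limma adjusted p = 0.0218). It belongs to the markers of stellate cells and fibroblasts, the matrix-forming cells of the liver. Of these markers 16 of 17 were lower (median -0.272, and -0.176 without E2f7 knockout array 1). At an unadjusted p under 0.05, 6 were lower (4.01% of all genes were). Reln, Vim and Dcn, which did not pass the test, differed by -0.41, -0.62 and -0.35, and in these 3 the groups did not overlap. The mean signal of these markers was 8.01 to 8.32 in the double knockout and 8.27 to 8.76 in the E2f7 knockout, and overlapped. It was 7.76 to 8.17 in the E2f8 knockout and 8.19 to 8.46 in wild type.

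Markers of sinusoidal endothelial cells, which line the liver's capillaries, were also mostly lower, in 18 of 21 genes with a median of -0.289. None was called, and 11 were lower at an unadjusted p under 0.05 (4.01% of all genes were). In 6 every double knockout array lay below every E2f7 knockout array (3.9% of all genes). Fcgr2b, an Fc receptor, read 9.83, 9.18, 9.16 and 9.79 against 10.47, 10.15, 9.88 and 9.97, a difference of -0.63 (limma adjusted p = 0.157). Kdr, the receptor of VEGF, differed by -0.44 and Ehd3 by -0.45, while Lyve1 and Stab2 differed by 0.33 and 0.10 with overlapping groups. The mean of the list was 7.76 to 8.20 and 8.09 to 8.43, and overlapped. In RNA of whole liver, fewer cells of a type and less RNA per cell cannot be told apart. Endothelial cells are not targeted by Albumin-Cre.

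Macrophage markers (11 of 18 higher, median 0.022), hepatocyte markers (8 of 15 higher, median 0.001) and neutrophil markers (6 of 10 higher, median 0.034) had no called member. Nor did those of T and NK cells (median -0.006), B and plasma cells (median -0.048), bile duct cells (median -0.025) or red cell precursors (median 0.014). The mean signal of the neutrophil markers was nonetheless 5.62 to 5.79 in the double knockout and 5.52 to 5.58 in the E2f7 knockout, without overlap. It was 5.43 to 5.60 in the E2f8 knockout and 5.41 to 5.79 in wild type. In 3 of the 10 all double knockout arrays lay above all E2f7 knockout arrays (3.21% of all genes).

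Genes of the endoplasmic reticulum, where secreted proteins are folded, were mostly higher in the double knockout. The list of the unfolded protein response and heat shock had 26 of 27 members higher, with a median of 0.459 against -0.0169 over all genes, and 20 were higher at an unadjusted p under 0.05 (4.21% of all genes were). Called members were Sdf2l1, Dnajb11 and Calr. Without one array at a time the median was 0.337 to 0.547.

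Sdf2l1, a partner of the chaperone BiP, read 10.50, 9.39, 9.54 and 9.09 in the double knockout and 8.43, 8.60, 8.90 and 8.09 in the E2f7 knockout. Every double knockout array was higher, array 1 by far the highest, and the rise was 1.13 (SE 0.24, limma adjusted p = 0.0397). Dnajb11, a BiP co-chaperone, read 11.09, 11.05, 11.36 and 10.45 against 10.29, 10.30, 10.25 and 10.05, a rise of 0.77 (SE 0.17, limma adjusted p = 0.0406). Calr, the lectin chaperone calreticulin, rose by 0.37 (limma adjusted p = 0.0406), with 1 overlapping pair of arrays at 13.48 and 13.53. Pdia5 and Erp29, of the disulfide isomerase family and outside the list, rose by 0.46 (limma adjusted p = 0.0206) and 0.41 (limma adjusted p = 0.0302).

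Several well-known members had the same sign and did not pass the test. Hspa5, which encodes BiP, differed by 0.46 (limma adjusted p = 0.24), Hsp90b1 by 0.45 (limma adjusted p = 0.0706) and Creld2 by 1.40 (limma adjusted p = 0.18). The transcription factors of the response were flatter, with 0.06 for Xbp1, 0.19 for Atf6 and -0.03 for Atf3. The 4 genotypes did not order by the number of deleted genes. The mean signal of the list was 11.63, 10.85, 11.28 and 10.85 in the double knockout, 10.66, 10.66, 10.46 and 10.64 in the E2f7 knockout, 10.69 to 11.03 in the E2f8 knockout and 11.07 to 11.30 in wild type, so the E2f7 knockout was lowest and the double knockout spanned the wild-type range.

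**Figure D3:**
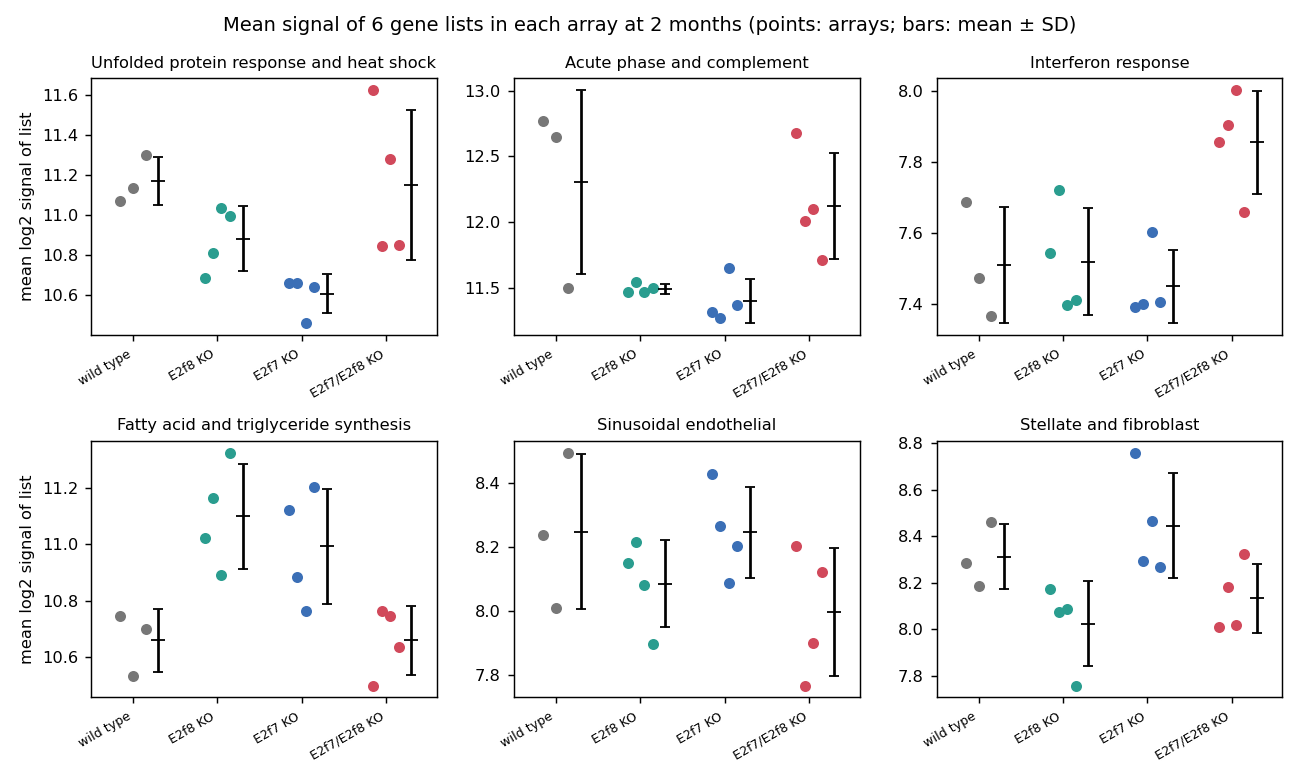
Mean log2 signal (vertical axis) of the members of 6 gene lists in each array at 2 months, by genotype (horizontal axis), for 3 wild-type, 4 E2f8 knockout, 4 E2f7 knockout and 4 double knockout arrays; points are arrays and bars the mean with its SD. Wild-type arrays 1 and 2 stand at 12.77 and 12.65 in the acute phase list and array 3 at 11.50, while the interferon list is highest in the double knockout.

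The acute phase proteins, secreted by hepatocytes in inflammation, were mostly higher as well. Of 26 genes 24 were higher (median 0.346), 16 at an unadjusted p under 0.05 (4.21% of all genes were). In 15 all double knockout arrays lay above all E2f7 knockout arrays (3.21% of all genes). Hpx, the heme carrier hemopexin, was called, with 14.57, 14.40, 14.41 and 14.39 against 14.19, 14.21, 14.25 and 14.25, a rise of 0.22 (SE 0.05, limma adjusted p = 0.0406). Saa1, a serum amyloid, read 13.89, 13.25, 13.41 and 12.30 against 10.98, 10.96, 11.64 and 10.48. Its difference of 2.20 (SE 0.50) missed the threshold (limma adjusted p = 0.0509). Saa2, Lcn2 and Orm2 differed by 2.63, 2.40 and 1.83, and their groups did not overlap either.

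Wild-type arrays were split in these genes, which bears on every comparison with them. Saa1 read 14.01 and 13.88 in wild-type arrays 1 and 2 and 10.82 in array 3, and 10.05 to 10.55 in the E2f8 knockout. The neutrophil genes S100a8 and S100a9 were also higher in wild-type arrays 1 and 2, at 6.54 and 6.26 for S100a8 against 4.76 in array 3. In the double knockout S100a8 read 6.43, 5.28, 5.43 and 5.61, and array 1 was highest in Saa1 as well. The part of these neutrophil signals and of the wild-type split in the results was not tested. The median of the acute phase list was 0.219 without double knockout array 1 and up to 0.412 without any other one of the 8 arrays.

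Fgl1, a fibrinogen-like protein secreted by hepatocytes, had 13.79, 12.89, 12.58 and 12.35 against 11.11, 11.04, 11.68 and 11.41, a rise of 1.59 (SE 0.32, limma adjusted p = 0.0264). Wild-type arrays were split here too, at 13.51, 13.83 and 11.17. Junb, a subunit of the AP-1 transcription factor, read 9.18, 8.14, 7.74 and 8.08 against 6.73, 6.97, 6.36 and 6.87 and rose by 1.55 (SE 0.35, limma adjusted p = 0.0456).

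Interferon-response genes, which are switched on by antiviral signalling, were mostly higher too. Since the promoters of many of them carry a known word, the interferon-stimulated response element, those of a called and of an uncalled member are shown. The window runs from 250 bases before to 50 bases after the start of the gene in RefSeq (GRCm38.p6), 5′ to 3′ on the strand of the gene, with matches on either strand in capitals. The word searched is GAAA, any 2 bases and GAAA again, and overlapping matches form 1 run of capitals.
Ifit1, chr19:34640639-34640938, plus strand: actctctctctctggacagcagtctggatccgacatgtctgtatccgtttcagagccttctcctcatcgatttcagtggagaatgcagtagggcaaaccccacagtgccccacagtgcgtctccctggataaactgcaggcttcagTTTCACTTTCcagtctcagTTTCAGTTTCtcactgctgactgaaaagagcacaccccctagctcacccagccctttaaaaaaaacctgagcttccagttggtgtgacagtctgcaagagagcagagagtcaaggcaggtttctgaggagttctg
Oas1a, chr5:120907476-120907775, minus strand: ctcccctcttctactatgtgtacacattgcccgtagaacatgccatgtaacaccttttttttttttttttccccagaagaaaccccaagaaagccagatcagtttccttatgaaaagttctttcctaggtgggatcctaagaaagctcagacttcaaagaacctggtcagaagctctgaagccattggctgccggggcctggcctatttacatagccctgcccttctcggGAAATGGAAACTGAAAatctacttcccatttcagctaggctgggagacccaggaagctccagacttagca
In Ifit1 the 2 matches begin 104 and 85 bases before the start (positions -104 and -85), and in Oas1a the 2 overlapping matches begin at -20 and -14. Of the 20 list members with a promoter sequence 11 held the word (55.0%), against 524 of 14452 measured genes (3.63%) and 5 of 35 called genes (14.3%). The called genes with the word were 3 of 17 higher (17.6%) and 2 of 18 lower (11.1%). Among the called list members a match was found only in Ifit1, and Gbp2, which was lower, held one too. This list was made of genes known for the response, and a match is a feature of the sequence.

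Of the 25 interferon-response genes 24 were higher (median 0.339) and 4 were called, Usp18, Ifit1, Irf7 and Mx2. At an unadjusted p under 0.05, 12 were higher (4.21% of all genes were), and Gbp2 was lower by 0.34 (log2 difference -0.34, limma adjusted p = 0.39).

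Usp18, a protease that removes the ubiquitin-like ISG15 and damps the interferon receptor, read 8.04, 8.58, 8.55 and 7.22 in the double knockout and 6.27, 6.61, 6.74 and 6.40 in the E2f7 knockout. It rose by 1.59 (SE 0.31, limma adjusted p = 0.0206). Ifit1, which binds viral RNA, read 7.86, 8.02, 7.99 and 7.26 against 6.37, 6.36, 7.07 and 6.57, a rise of 1.19 (SE 0.25, limma adjusted p = 0.0397). In both genes array 4 of the double knockout was the lowest of its group and still above every E2f7 knockout array. Irf7, the transcription factor that amplifies the interferon response, read 8.91, 9.07, 9.52 and 8.62 against 8.22, 8.02, 8.15 and 8.22, a rise of 0.87 (SE 0.16, limma adjusted p = 0.0155). Mx2, an antiviral GTPase, rose by 0.42 (limma adjusted p = 0.0451), with array 4 of the double knockout at 7.51 inside the E2f7 knockout range of 7.33 to 7.53. Oas1a, shown above, differed by 0.53 (limma adjusted p = 0.12).

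The interferon list had its highest arrays in the double knockout among the 4 genotypes at 2 months. Its mean signal was 7.86, 7.91, 8.00 and 7.66 there, 7.39 to 7.60 in the E2f7 knockout, 7.40 to 7.72 in the E2f8 knockout and 7.37 to 7.69 in wild type. Array 4 of the double knockout lay inside the range of the last 2 groups. For Usp18 the wild-type arrays read 7.80, 6.95 and 6.38, so wild-type array 1 exceeded that double knockout array.

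The promoters of chaperone genes can be shown in the same way, with the endoplasmic reticulum stress element (CCAAT, any 9 bases and CCACG, on either strand) in capitals. Calr was called and Hsp90b1 was not.
Calr, chr8:84846882-84847181, minus strand: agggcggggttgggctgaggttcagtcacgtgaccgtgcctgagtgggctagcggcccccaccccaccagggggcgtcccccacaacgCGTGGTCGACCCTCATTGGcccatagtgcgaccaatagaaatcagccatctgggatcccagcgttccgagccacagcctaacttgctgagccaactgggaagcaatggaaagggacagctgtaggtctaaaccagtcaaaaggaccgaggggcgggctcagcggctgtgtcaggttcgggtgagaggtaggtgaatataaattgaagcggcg
Hsp90b1, chr10:86705395-86705694, minus strand: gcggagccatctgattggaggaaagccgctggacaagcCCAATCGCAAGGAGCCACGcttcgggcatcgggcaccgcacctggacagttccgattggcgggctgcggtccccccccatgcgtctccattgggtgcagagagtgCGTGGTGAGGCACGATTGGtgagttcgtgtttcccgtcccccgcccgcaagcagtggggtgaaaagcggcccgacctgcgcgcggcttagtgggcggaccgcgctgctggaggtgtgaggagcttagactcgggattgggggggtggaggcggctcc
The match in Calr begins at -162 and those in Hsp90b1 at -212 and -107. Of the 22 members of the list with a promoter sequence 8 held the word (36.4%), against 0.138% of measured genes. Of the 35 called genes with a promoter sequence 1 held it (2.86%), and that gene was Calr. A match is a feature of the sequence, and the list itself was made of genes known for this response.

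The remaining rises were of mixed function. Atf5, a stress-related transcription factor, rose by 0.80 (limma adjusted p = 0.0406), from 10.72, 10.56, 10.86 and 10.82 to 11.40, 11.72, 11.81 and 11.21. Tent5a, a cytoplasmic poly(A) polymerase, rose by 0.95 (limma adjusted p = 0.0406), with array 4 of the double knockout at 7.99 below array 1 of the E2f7 knockout at 8.14. Dedd2, a death-effector domain protein, read 8.82, 8.63, 8.56 and 8.52 against 8.16, 8.02, 7.79 and 8.26, a rise of 0.58 (SE 0.11, limma adjusted p = 0.0206). Dhrs3, a retinaldehyde reductase, rose by 0.57, Cyp2d12 by 0.46, Elmod2 by 0.43, Tes, a focal adhesion protein, by 0.41 and the lysosomal protease Ctsz by 0.35. The clone-named gene 4933438K21Rik rose by 0.82.

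**Figure D4:**
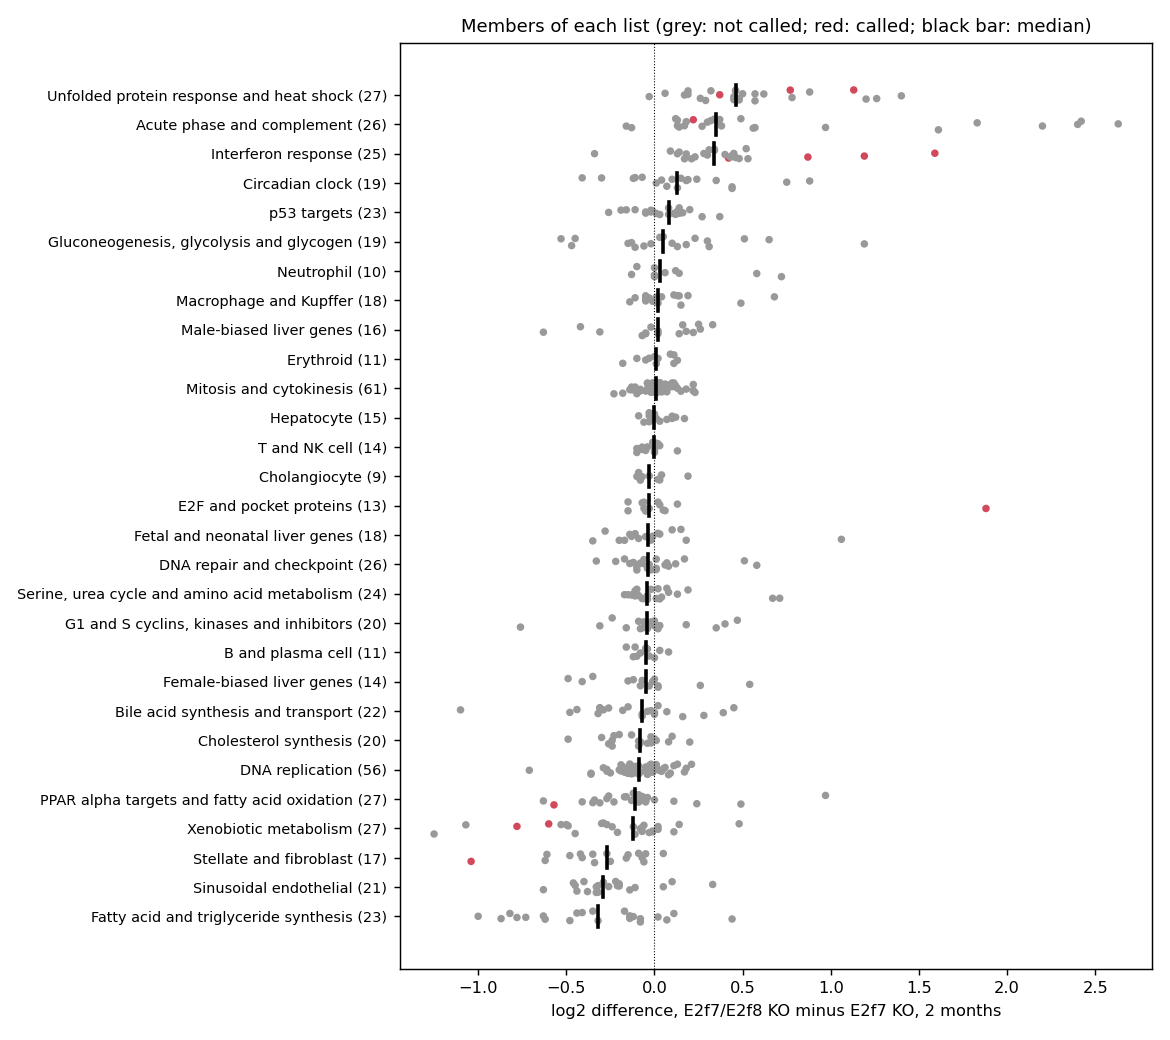
Log2 difference between the double and the E2f7 knockout at 2 months (horizontal axis) of every measured member of 29 gene lists (rows, number of members in brackets); points are genes, red where the test was passed, and black bars are medians. The medians of the unfolded protein response, acute phase and interferon lists lie at 0.459, 0.346 and 0.339, and that of fatty acid and triglyceride synthesis at -0.316.

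Cell cycle genes, the best known targets of these proteins, showed no called change. Of 56 genes of DNA replication limma called 0, and 2 were lower at an unadjusted p under 0.05 (4.01% of all genes were). Whatever the p, 14 were higher and 42 lower, with a median of -0.091. That tilt rested on E2f7 knockout array 3, whose mean over the list was 7.36 against 7.01 to 7.09 in the other 3 and 6.96 to 7.16 in the double knockout. Without it 28 were higher and 28 lower, with a median of -0.0002, and with array weights 25 were higher and 31 lower. The 61 genes of mitosis and cytokinesis had 36 higher and 25 lower, a median of 0.012, and 0 called by limma and 0 at an unadjusted p under 0.05. Rpa3, a subunit of the single-strand DNA binding complex, differed by -0.36 (limma adjusted p = 0.149) and Mcm6, of the replicative helicase, by -0.71 (limma adjusted p = 0.72). Foxm1, a transcription factor of mitotic genes, read 6.68, 6.57, 6.73 and 6.75 against 6.56, 6.52, 6.53 and 6.65 and differed by 0.12 (limma adjusted p = 0.833). The median of the mitosis list turned negative without E2f7 knockout array 2 (-0.012) or double knockout array 2 (-0.033). The words TTTGGCGC, TTTCCCGC, TTTCGCGC and TTTGCCGC, forms of the E2F site, were searched on both strands. They occurred in 17 of 47 replication promoters (36.2%) and in 3.81% of measured genes. Of the 35 called genes with a promoter sequence 0 held one, which says only that these letters are not in that window.

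Loss of E2f8 can be measured a second time, with E2f7 present, in arrays that do not enter the mean difference above. They do enter the shared estimate of the spread, so the 2 sets of p-values are not independent. The wild-type labels name no Albumin-Cre, while those of the E2f7, E2f8 and double knockouts do. The E2f8 knockout and wild type may therefore differ in the Cre as well as in E2f8, and these cannot be told apart. The E2f8 knockout against wild type at 2 months gave 64 called genes of 18193 (0.352%). Of the 43 genes called above, 10 had the same sign there, and the share of all genes that did was not counted. Genes called in both were E2f8 and Gm2788 with the same sign, and Osbpl3 and Tes with opposite signs, Tes at 0.41 with E2f7 absent and -0.38 with it present. Over all 18193 genes the correlation between the 2 differences was -0.304, a description across genes that are not independent.

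The interaction was the difference made by E2f8 loss without E2f7 minus that with E2f7. Through the wild-type arrays it may also hold the difference in Cre. It called 199 genes (1.09%), 107 higher (0.588%) and 92 lower (0.506%), among them 30 of the 43. It contains the comparison that chose these 43, so their share there is no independent evidence. In Acaa1b the interaction was -1.03 (limma adjusted p = 0.00114), in Fgl1 2.67 (limma adjusted p = 0.00366) and in Pparg -1.31 (limma adjusted p = 0.00686). In Ifit1, Irf7 and Mx2 it was 0.84, 0.72 and 0.42 and did not pass (limma adjusted p = 0.387, 0.144 and 0.163), while Usp18 passed at 1.97 (limma adjusted p = 0.0231).

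These interactions lean on the 3 wild-type arrays. Of the 30 genes 16 were still called without wild-type array 1 and 18 without array 2, against 29 without array 3 and 22 to 29 without any one of the knockout arrays, and 14 with no term for the run. All 30 kept their sign in each of these fits. Inmt shows the pattern, with 12.70 and 12.39 in wild-type arrays 1 and 2, close to 3 of the double knockout arrays, and 13.60 in wild-type array 3, close to both single knockouts. The acute phase list moved with it, at 12.77 and 12.65 in arrays 1 and 2 and 11.50 in array 3, and its part in the interaction was not tested. Of 18 macrophage markers 0 were higher in the E2f8 knockout than in wild type (median -0.606), and 2 were called lower (0.352% of all genes were called in either direction). In the interaction 18 of the 18 were higher (median 0.693) and 2 were called (0.588% of all genes were called higher). The part of these markers was not tested either.

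**Figure D5:**
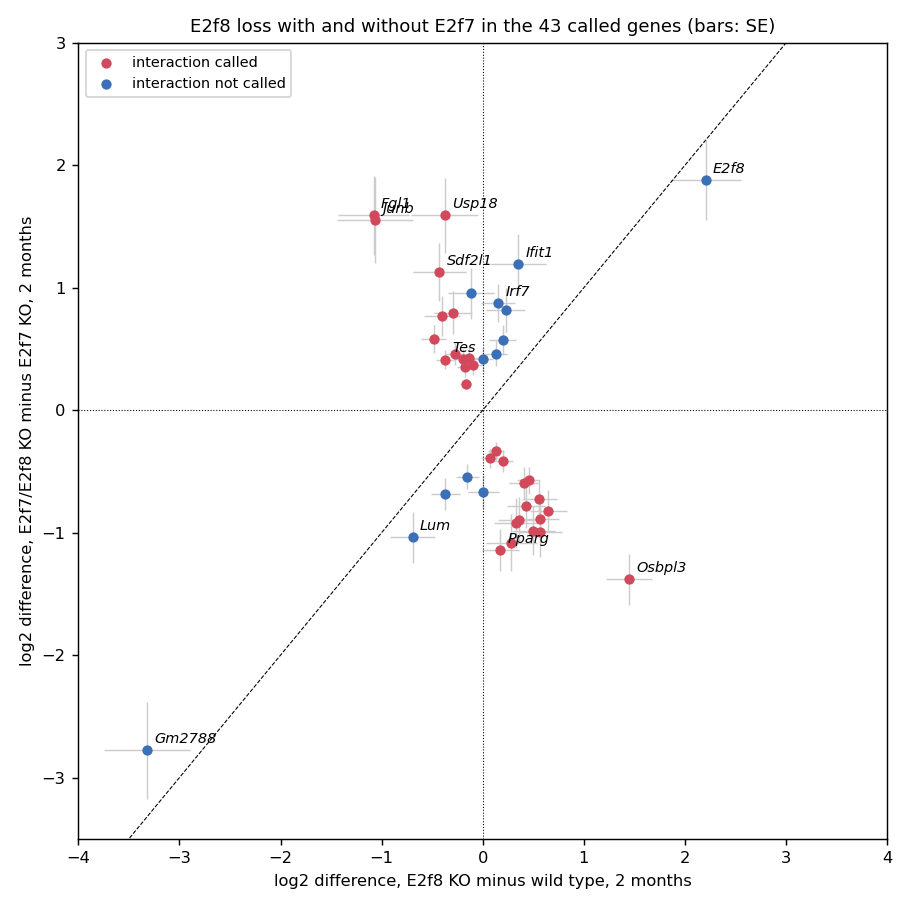
Log2 difference of the double against the E2f7 knockout (vertical axis) plotted against that of the E2f8 knockout against wild type (horizontal axis), both at 2 months, for the 43 called genes; bars are SE, red points passed the interaction test, and the dashed line marks equal differences. Gm2788 and E2f8 lie near the dashed line, while Osbpl3 lies at 1.45 on the horizontal and -1.38 on the vertical axis.

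At 3 weeks, around weaning, the same pair of genotypes was compared through the means of other arrays. All 3-week arrays formed a normalization run of their own, so age and run cannot be told apart. There 22 genes were called (0.121%). Of the 43 genes of 2 months 34 had the same sign, and the share of all genes that did was not counted. An unadjusted p under 0.05 at 3 weeks was reached by 10 of the 43 with the same sign and 1 with the opposite sign. The share of all genes that reached it was not counted either, so these counts have no baseline and do not measure a repeat of the result. Over all 18193 genes the correlation between the differences at the 2 ages was 0.187. Gm2788 was called at both ages. The difference between the ages passed the test in 2 of 18193 genes (0.011%), with 1339 at an unadjusted p under 0.05 (7.36%). Dedd2 differed by 0.58 at 2 months and -0.47 at 3 weeks (difference 1.05, limma adjusted p = 0.00482). Gstt2, a glutathione transferase, was the other (difference -1.23, limma adjusted p = 0.0274).

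For most genes, then, the ages cannot be said to differ. E2f8 itself differed by 1.01 at 3 weeks (limma adjusted p = 0.321), Pparg by -0.28, Usp18 by 0.84, Ifit1 by 0.45 and Irf7 by 0.10, none of which passed. The medians of the lists at 3 weeks were 0.14 for the unfolded protein response, 0.059 for interferon and -0.186 for fatty acid and triglyceride synthesis, and 13 of 26 acute phase genes were higher. Endothelial markers had a median of -0.207 with 2 of 21 higher, and stellate and fibroblast markers -0.061. The list of p53 targets had 14 of 23 higher at 2 months (median 0.079) and 2 of 23 higher at 3 weeks (median -0.221), with no called member at either age. Its median at 2 months was 0.039 and 0.021 without double knockout arrays 2 and 3, and 0.027 and 0.029 without E2f7 knockout arrays 1 and 2, and the difference between the ages was not tested for the list.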

How the data were processed

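Total liver RNA was hybridised to Affymetrix arrays, and the deposited values are log2 signals that the authors made with RMA (robust multi-array averaging, no version stated), per the submitters' processing notes. Of 45101 probe sets, 64 controls, 932 with several symbols and 9160 with none were left out of the tests. The probe set with the highest mean signal stood for its gene, leaving 18193 genes. Sorted values fell into 3 distributions, treated as normalization runs that the labels do not describe; all 4 genotypes at 2 months are compared within one run. Group means over all 35 arrays, with 1 term for the second run at 2 months, were fitted with limma 3.58.1 in R 4.3.3 with an intensity trend (25 residual and a median of 5.19 prior degrees of freedom). That second run held 3 arrays of Mx1-Cre E2f1-/- E2f2-/- E2f3loxp/loxp livers and wild-type arrays 4 and 5. The third held all 3-week arrays, with those of the E2f8 knockout and wild type. All of these arrays entered the estimate of the spread. A gene was called when its Benjamini-Hochberg adjusted p was below 0.05.

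The rule for naming genes took E2f1 to E2f8, the 10 largest rises and falls among called genes with groups apart, up to 4 members of each list with the smallest p, and the nearest neighbours of E2f8. Other called genes and other list members were chosen after their values were seen. The comparison, the lists and the rule were chosen with earlier results of these data known, so a list's direction is no independent evidence. Lists are described by counts and medians, with no set test. Genes were placed in order, and promoter sequences matched by symbol, through RefSeq tables of GRCm38.p6, which placed 18142 genes and held a promoter for 14452.

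On simulated data for this comparison 39, 49, 50 and 50 of 50 genes changed by 0.5, 1, 2 and 4 log2 were recovered, with 13 false calls among 17993 genes. The simulated noise was independent between genes and arrays, so shifts shared by many genes of an array were not simulated. These counts therefore do not measure how far the real calls rest on single arrays. Exact permutation tests used Python 3.11.15 with scipy 1.17.1. There is no read depth on arrays, and having 4 in each group limits the precision. Alternatives were a replicate block, fits of only the groups or the run compared, no run term, no intensity trend, quantile normalization, array weights, averaging the probe sets of each gene, a filter on the dimmest 40 percent, and each array left out in turn. List medians under these settings, and the interaction with each array left out, were added after seeing the data.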

Additional observations from a re-analysis of the deposited data

Results flagged for a closer look

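In 30 of the 43 called genes limma's interaction test passed at an adjusted p under 0.05. The interaction contains the comparison that chose the 43, so this share is no independent evidence, and the wild-type labels name no Cre. Without wild-type array 1, 16 of the 30 were still called, without array 2, 18, and with no run term, 14. Among the genes higher in the double than in the E2f7 knockout, the interaction was 2.67 for Fgl1, 2.62 for Junb, 1.97 for Usp18, 1.56 for Sdf2l1, 1.17 for Dnajb11, 1.09 for Atf5 and 1.07 for Dedd2. Smaller positive values were found for Tes (0.79), Pdia5 (0.73), Erp29 (0.61), Elmod2 (0.56), Ctsz (0.52), Calr (0.47) and Hpx (0.39). Among the genes that were lower, Osbpl3 had the most negative interaction at -2.83. Cda (-1.57), Akr1b8 (-1.48), Inmt (-1.47), Aldh3a2 (-1.46), Fitm1 (-1.36), Pparg (-1.31), Fam241a (-1.28), Hsd17b6 (-1.25), Zfand4 (-1.24) and Gsta4 (-1.21) followed. The rest were Acaa1b (-1.03), Gstt1 (-1.0), Acsl5 (-0.62), Haus7 (-0.46) and Tns3 (-0.46).

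Dedd2 was the one called gene whose difference at 2 months passed the test against that at 3 weeks, by 1.05. The 2 ages are also different normalization runs, and these cannot be told apart.

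A single array stood apart from the other 3 of its group in 10 of 84 combinations of a called gene and a group; chance gives about 1 in 20. The double knockout array was highest for Osbpl3 (6.47), Akr1b8 (7.65), Inmt (13.31) and Hpx (14.57) and lowest for Acsl5 (11.62) and Haus7 (7.55). The E2f7 knockout array was highest for Lum (8.65), Aldh3a2 (11.05), Cyp2d12 (5.94) and Tns3 (10.04).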

How the results depend on the processing

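The number of genes called between the double and the E2f7 knockout at 2 months was 43, and 19 in a fit of only the groups, 4 with only the arrays of the run, 2 with no run term and 431 with array weights. With each array left out in turn it was 4 to 68. The same comparison at 3 weeks gave 22 genes, and under those 4 settings 37, 7, 7 and 47, with 5 to 24 as arrays were left out. The E2f8 knockout against wild type gave 64, and 35, 111, 282 and 252, with 7 to 100. The interaction gave 199, and 582 with array weights and 60 to 268 as arrays were left out. The difference between ages gave 2, and 10, 1, 1 and 12, with 1 to 3.

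Replicate numbers are shared between the groups, and the labels do not say whether they pair the arrays. Arrays of the same number had correlations of deviations of 0.043, -0.134, 0.089 and 0.046. Those of different numbers had -0.212 to 0.242. A replicate block was run only in the fit of the groups compared. There it gave 64 genes for the double against the E2f7 knockout (19 without the block), 42 for the E2f8 knockout against wild type (35 without) and 6 for the difference between ages (10 without).

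Signs turned only in values that had not passed the test. With the mean of probe sets E2f5 was 0.073 and Ckap2l -0.026, with quantile normalization E2f6 was -0.002, and with array weights E2f7 was 0.033. As arrays were left out, E2f2 ran from -0.111 to 0.009, E2f5 from -0.118 to 0.04 (0.023 and 0.012 without E2f7 knockout array 4 or double knockout array 1), E2f6 from -0.032 to 0.076 (-0.008 without double knockout array 2), E2f7 from -0.143 to 0.095 and Acot3 from -0.607 to 0.065. The 3' to 5' difference of Gapdh was 0.053 and ran from -0.002 to 0.1, and that of Actb from -0.051 to -0.005. The median of the mitosis list ran from -0.033 to 0.036, with -0.012 without E2f7 knockout array 2. The causes were not tested.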

Other observations

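Some genes outside the groups described above had arrays that did not overlap between the double and the E2f7 knockout without passing the test. Nr1d1, a repressor of the circadian clock, read 8.60, 8.10, 8.55 and 8.57 in the double knockout and 7.46, 7.63, 7.19 and 8.01 in the E2f7 knockout, a difference of 0.88 (limma adjusted p = 0.218). Of 19 clock genes 14 were higher, with a median of 0.13 (0.078 without double knockout array 1) and 0 called by limma (1 at an unadjusted p under 0.05). Slco1a4, an organic anion carrier of the hepatocyte, read 8.96, 9.76, 8.58 and 9.53 against 10.05, 10.19, 10.43 and 10.58, a difference of -1.10 (limma adjusted p = 0.236). Of 22 genes of bile acid synthesis and transport 16 were lower, with a median of -0.066 that was -0.103 and -0.106 without double knockout arrays 2 and 4, and -0.117 without E2f7 knockout array 3.

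Among the inhibitors of cyclin-dependent kinases, Cdkn1b read 8.57, 8.21, 8.42 and 8.03 against 7.79, 7.81, 8.11 and 7.64, a difference of 0.47 with overlapping groups (limma adjusted p = 0.16). Cdkn2c differed by 0.40 (limma adjusted p = 0.224) and Cdkn1a by -0.16 (limma adjusted p = 0.97).

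Igfbp1, a secreted binding protein of insulin-like growth factors, read 9.04, 9.66, 8.85 and 10.39 against 8.68, 8.96, 7.74 and 7.83 and differed by 1.19 (limma adjusted p = 0.482). In the E2f8 knockout it read 7.19, 7.06, 8.04 and 5.49 and in wild type 8.43, 9.91 and 9.20, and its interaction was 3.42 (limma adjusted p = 0.014).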
